A study of Mus musculus with 8 samples.

Results

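The genes described here are 39 markers of the first lineages that a mouse embryo forms. They comprise 11 genes of endoderm, 12 of mesoderm and the primitive streak, 9 of ectoderm and neural cells and 7 of trophoblast, among 17098 genes tested on the same arrays. The genes were taken by name, with earlier results of these data known. Each was read by 1 probe set, a group of short probes for a transcript, namely the one with the highest mean over the 8 arrays among those annotated to that gene alone. Values were obtained for 37 of the 39, and Cxcr4 and Zic1 were not analysed here. Levels are log2 expression values, and a gene whose mean over the 8 arrays was at least 3.5 was counted as detected. By that limit 12 markers were detected and 25 were silent. Tfap2a at 3.55 and Foxa1 at 3.65 lay just inside the limit, and Msgn1 and Afp, both at 3.41, just outside it.

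The arrays profiled embryonic stem (ES) cells of C57BL/6 mice at passages 19 to 22, which the labels call HPRT deficient in both groups. One group of 4 samples received 2.5 µM cisplatin, a platinum drug that crosslinks DNA, and the other 4 received the solvent DMSO, both for 8 h. The comparison asks which transcripts of these cells respond to the drug. The cells had been passaged on feeder cells and then on gelatin, and the labels do not give the origin of the HPRT defect, whether the line is 1 clone, or whether replicates were separate cultures. A p-value here speaks only to the scatter among these arrays, part or all of which may be technical.

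ES cells derive from the inner cells of the blastocyst and can enter every lineage of the embryo proper. At gastrulation, cells passing through the primitive streak become mesoderm or definitive endoderm under Nodal and Wnt signals, while cells that stay outside it become ectoderm, from which neural tissue arises. Primitive endoderm and trophoblast are set aside before that and give rise to yolk sac and placenta. Most markers of these fates encode transcription factors, and many of their promoters in ES cells carry activating and Polycomb histone marks together, a state in which transcription is low.

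The sequences upstream of the 3 markers that passed the test are given with that of Mesp1, the neighbour and close relative of Mesp2, because these are the genes on which the results turn. Each is the stretch of 250 bases before the annotated start, 5′ to 3′, from the RefSeq promoter table of GRCm38.p6, and capitals mark E-boxes, the CANNTG motif that basic helix-loop-helix factors such as Mesp1, Mesp2 and Ascl2 bind. The motif was searched on both strands.
Mesp2, chr7:79810477-79810726, plus strand: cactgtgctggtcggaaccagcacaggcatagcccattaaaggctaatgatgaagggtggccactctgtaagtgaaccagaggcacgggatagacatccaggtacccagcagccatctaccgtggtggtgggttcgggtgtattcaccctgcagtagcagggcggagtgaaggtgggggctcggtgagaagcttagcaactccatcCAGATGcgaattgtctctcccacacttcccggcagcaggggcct
Mesp1, chr7:79793591-79793840, minus strand: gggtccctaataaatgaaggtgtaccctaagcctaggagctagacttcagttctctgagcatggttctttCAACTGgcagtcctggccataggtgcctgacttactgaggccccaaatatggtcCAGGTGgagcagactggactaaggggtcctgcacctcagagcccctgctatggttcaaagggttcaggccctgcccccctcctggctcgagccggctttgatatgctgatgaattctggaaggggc
Ascl2, chr7:142969265-142969514, minus strand: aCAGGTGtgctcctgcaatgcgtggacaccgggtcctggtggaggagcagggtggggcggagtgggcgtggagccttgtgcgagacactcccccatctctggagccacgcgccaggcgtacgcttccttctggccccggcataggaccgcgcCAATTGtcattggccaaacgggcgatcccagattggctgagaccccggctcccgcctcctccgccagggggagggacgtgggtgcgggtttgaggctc
Pax6, chr2:105668646-105668895, plus strand: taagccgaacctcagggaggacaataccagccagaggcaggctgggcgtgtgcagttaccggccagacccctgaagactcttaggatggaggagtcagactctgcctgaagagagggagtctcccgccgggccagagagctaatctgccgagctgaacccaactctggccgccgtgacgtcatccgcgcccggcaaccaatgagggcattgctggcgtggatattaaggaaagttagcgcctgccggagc
The Mesp2 window held 1 E-box and those of Mesp1 and Ascl2 held 2 each. The first of the 2 annotated Pax6 windows, shown here, held none, and the second, not shown, held 1. An E-box was found in 66.2% of all 32851 windows of this length. For 29 of the 39 markers, 39 windows were examined, and 23 of these windows held an E-box. The other markers were not included in this count. None of the 4 windows held a TATA box (TATAAA, in 12.4% of all windows) or the p53 decamer motif (in 7.13%), both searched on both strands. The 39 windows of these 29 markers were richer in CpG than most. Their median ratio of observed to expected CpG was 0.67, against 0.37 over all windows. Mesp1, at 0.11, and Mesp2, at 0.39, lay under the median of the markers. Ascl2 and the first Pax6 window, at 0.67 and 0.65, lay near it, and the second Pax6 window was at 1.06. These matches describe the sequence and no binding was measured.

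After 8 h of cisplatin, 2 of the 37 measured markers were higher and 1 lower (limma, adjusted p under 0.05 over all genes), and the other 34 were not called. Mesp2, a transcription factor of presomitic mesoderm, rose 1.96-fold, Ascl2, a factor of trophoblast progenitors, rose 1.43-fold, and Pax6, a factor of neural ectoderm and eye, fell 1.71-fold. Over all genes, 19.3% passed the same test, 11.6% upward and 7.69% downward. All 3 calls fell on detected markers, of which there were 12, and 29.6% of the 10261 genes with a mean of at least 3.5 were called. None of the 25 silent markers was called by limma, with 2 at an unadjusted p under 0.05, and among the 6837 genes under 3.5 the share called was 3.86%. The median change of the 37 markers was -0.046 on the log2 scale, and that of all genes was 0.013. Centring each array on its median lowers every change by 0.13 and takes the median change of all genes to -0.12. Most genes then read as lower, though the array medians over all probe sets ran only from 3.35 to 3.38. The centred fit called 12 markers, 2 higher and 10 lower, beside 29.3% of all genes. The lower ones were then Pax6, Otx2, Tubb3, Sox17, Foxa2, Evx1, Cdx2, Gata3, Elf5 and Tfap2a. Of these, Sox17, Foxa2, Evx1, Gata3 and Elf5 had means below the array background, a log2 level of 3.10, in both groups before centring. The split of calls over all genes was 1989 higher and 1314 lower, against 1087 and 3925 after centring and 1575 and 1711 with repeated quantile normalization. In bulk RNA, fewer cells of a kind and less RNA per cell cannot be told apart.

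**Figure D1:**
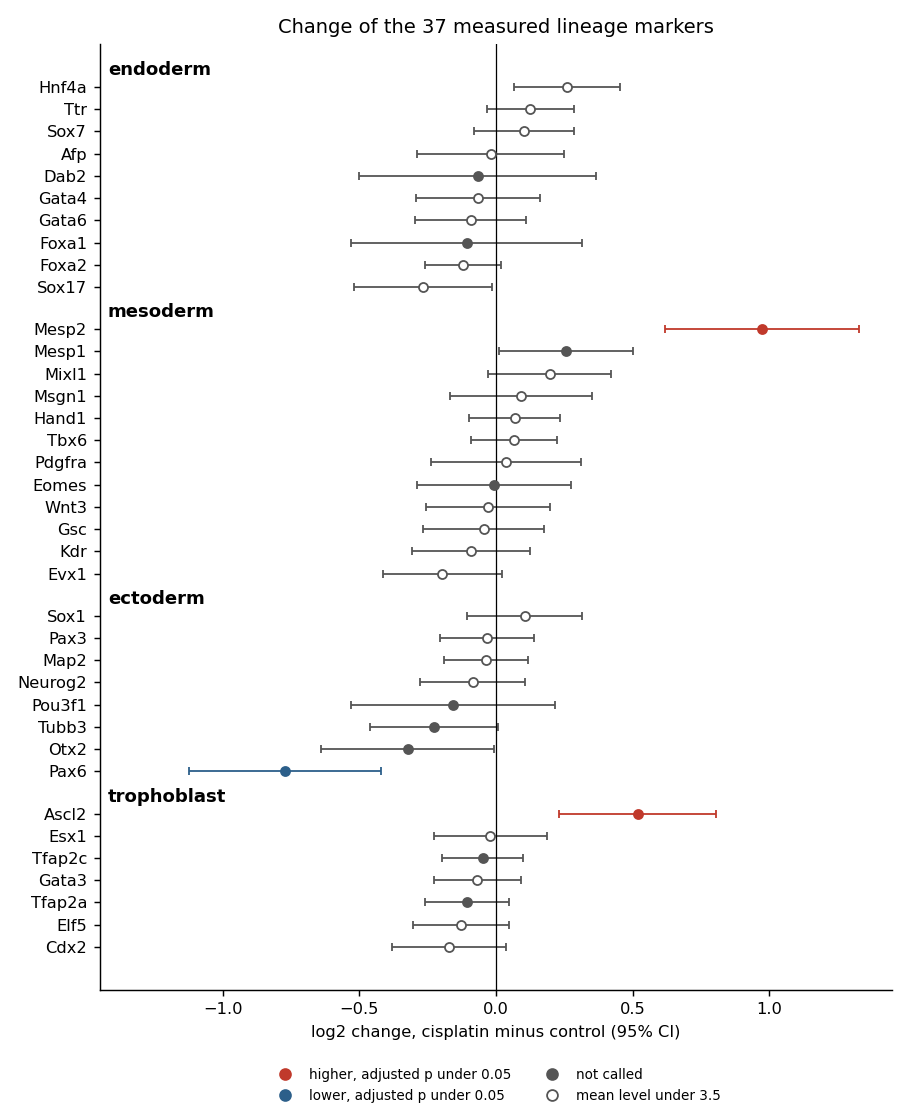
Log2 change (cisplatin minus control) of each of the 37 measured markers on the horizontal axis, by lineage, with 95% confidence intervals from limma over 4 arrays per group. Mesp2 at 0.97, Ascl2 at 0.52 and Pax6 at -0.77 passed the test, and the silent markers, drawn open, lie between -0.27 and 0.26.

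In mesoderm, 3 of 12 markers were detected, 1 was higher and none lower. Mesp2 is a basic helix-loop-helix factor that sets segment borders as somites form. Its log2 levels on the cisplatin arrays, replicates 3 to 6 in order, were 4.81, 5.49, 5.60 and 5.47. On the control arrays they were 4.30, 4.57, 4.39 and 4.21. Every cisplatin array lay above every control array, with cisplatin replicate 3 the closest to them. The group means were 5.34 ± 0.36 (SD, n = 4) and 4.37 ± 0.15, and the log2 change was 0.97 ± 0.16 (SE, adjusted p = 0.00212).

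Mesp1, which directs early heart and cranial mesoderm, lies beside Mesp2 on chromosome 7. It read 3.78, 4.12, 3.79 and 3.73 with cisplatin and 3.48, 3.86, 3.46 and 3.59 in the controls. Only control replicate 4 reached the cisplatin range, so the groups overlapped, and the change of 0.26 ± 0.11 did not pass the test (adjusted p = 0.146). Without control replicate 4 it was 0.34 (adjusted p = 0.0455). The change of Mesp2 exceeded that of Mesp1 by 0.72 when both were read on the same array, and this difference did not overlap between the groups. It gave the smallest p that the 70 assignments of 8 arrays allow (two-sided exact permutation test, p = 0.0286). Adjusted over the 6 pairs of related markers compared, p was 0.0857. In 4 of those pairs a gene lay below the array background (a log2 level of 3.10) in both groups, and their differences are not given.

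Eomes, a T-box factor of the streak and of trophoblast, was the third detected mesoderm marker. It ranged from 4.06 to 4.70 with cisplatin and from 4.27 to 4.59 in the controls, with a change of -0.0070 ± 0.13. The 9 silent mesoderm markers had changes from -0.20 to 0.20, and none was called. The extremes were the homeobox gene Evx1, at -0.20 ± 0.097 (adjusted p = 0.203), and the streak factor gene Mixl1, at 0.20 ± 0.10 (adjusted p = 0.223). Tbx6, whose protein activates Mesp2 in presomitic mesoderm, averaged 3.00 ± 0.13 and 2.94 ± 0.05, and its change was 0.065 ± 0.070. Both means lie below the array background, so this reading does not show whether Tbx6 changed. Msgn1, another presomitic factor, was at 0.091 ± 0.12 and Hand1, a heart and trophoblast factor, at 0.068 ± 0.075. The receptor genes Kdr, of blood vessel precursors, and Pdgfra, of paraxial mesoderm and primitive endoderm, were at -0.092 ± 0.096 and 0.037 ± 0.12. The organizer gene Gsc and the signal gene Wnt3, which starts streak formation, were at -0.046 ± 0.099 and -0.029 ± 0.10. For each of these 9 genes the groups overlapped. Evx1 passed without cisplatin replicate 6, at -0.30 (adjusted p = 0.0176). Its means of 2.45 with cisplatin and 2.64 in the controls both lie below the array background.

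In ectoderm, 4 of 8 measured markers were detected and Pax6 alone was called, as lower. Its log2 levels were 6.42, 6.10, 6.30 and 6.28 on the cisplatin arrays and 7.22, 6.96, 7.42 and 6.58 on the control arrays. All 4 cisplatin arrays lay below all 4 controls, and control replicate 6 was the lowest of its group. The means were 6.27 ± 0.13 (SD, n = 4) and 7.05 ± 0.36, with a change of -0.77 ± 0.16 (SE, adjusted p = 0.00701). The related paired-box gene Pax3, a marker of the dorsal neural tube, was silent and read a change of -0.033 ± 0.077. Its probe set lay below the array background in both groups.

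The other 3 detected ectoderm markers did not pass the test, and each had its smaller mean with cisplatin. Otx2, a factor of the primed epiblast and later of the forebrain, read 8.38, 7.86, 8.24 and 7.96 with cisplatin and 8.66, 8.16, 8.62 and 8.30 in the controls. The ranges overlapped, and the change was -0.32 ± 0.14 (adjusted p = 0.150). Tubb3, a tubulin of neurons, read 7.59, 7.53, 7.40 and 7.73 against 7.88, 7.66, 7.59 and 8.02, again with overlap. Its change was -0.23 ± 0.10 (adjusted p = 0.175). Centring brought Otx2 and Tubb3 past the threshold, at -0.45 and -0.36 (adjusted p = 0.0349 and 0.0339). With the replicate number as a block, Otx2 and Tubb3 were called lower (adjusted p = 0.00665 and 0.0305) and Mesp1 higher (adjusted p = 0.0216), beside 20.2% of all genes called in that fit. For Otx2 the same-number differences ran from -0.39 to -0.28, and the labels do not say whether the numbers pair the samples.

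Pou3f1, a POU factor of the primed epiblast and of neural fate, ranged from 7.88 to 8.54 with cisplatin and from 8.02 to 8.64 in the controls. Its change was -0.16 ± 0.17 (adjusted p = 0.592), and its 95% confidence interval ran from -0.53 to 0.21. No silent ectoderm marker was called. Sox1, the earliest marker of neural plate, was at 0.10 ± 0.095, the proneural gene Neurog2 at -0.086 ± 0.086 and Map2, a microtubule protein gene of neurons, at -0.038 ± 0.068.

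**Figure D2:**
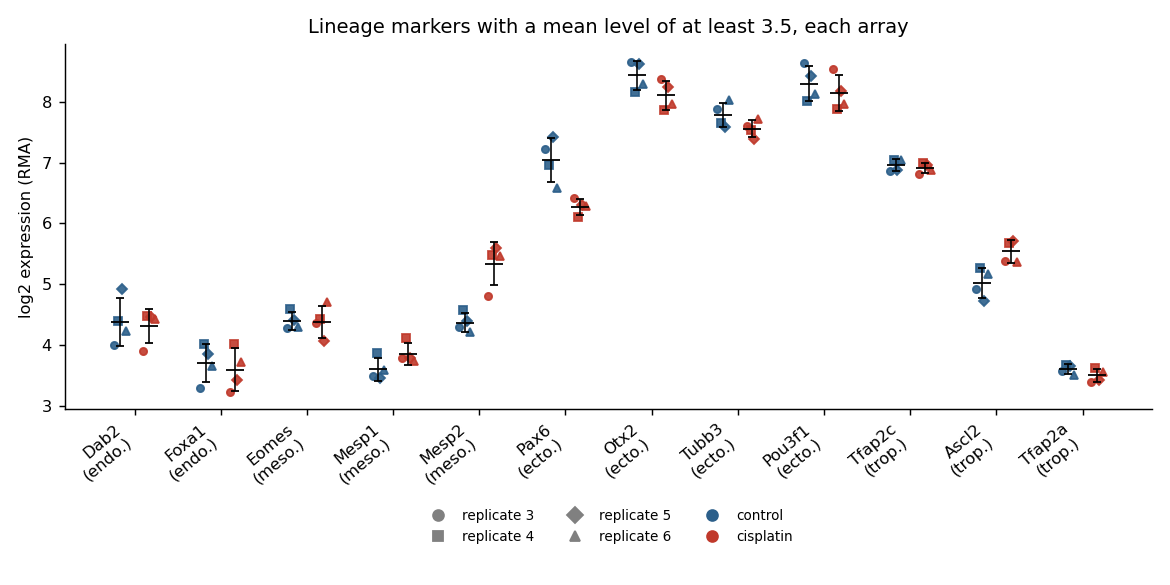
Log2 expression of the 12 detected markers on each of the 8 arrays (control blue, cisplatin red, one symbol per replicate number); horizontal bars are group means and error bars the SD over 4 arrays. The groups are apart for Mesp2, Pax6 and Ascl2 and overlap for the other 9, and levels of different genes come from different probes and are not comparable.

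In trophoblast, 3 of 7 markers were detected and Ascl2 alone passed the test. Ascl2 is a basic helix-loop-helix factor needed for the spongiotrophoblast of the placenta and is imprinted there. Its log2 levels were 5.39, 5.68, 5.71 and 5.37 with cisplatin and 4.92, 5.27, 4.72 and 5.17 in the controls. The groups did not overlap, though cisplatin replicate 6 and control replicate 4 were 5.37 and 5.27. The means were 5.54 ± 0.18 (SD, n = 4) and 5.02 ± 0.25, and the change was 0.52 ± 0.13 (SE, adjusted p = 0.0183). Ascl2 no longer passed when cisplatin replicate 4, cisplatin replicate 5 or control replicate 3 was left out (adjusted p = 0.0522, 0.0559 and 0.0527). An unmoderated t statistic also ended the call (adjusted p = 0.0755).

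Tfap2c, an AP-2 factor of trophoblast and germ cell precursors, ranged from 6.82 to 6.99 with cisplatin and from 6.87 to 7.05 in the controls. Its change of -0.049 ± 0.067 did not pass the test, and the 95% confidence interval ran from -0.20 to 0.10. After centring its change was -0.18 (adjusted p = 0.0714). By its second probe set it was -0.14 ± 0.065 (adjusted p = 0.196 over all probe sets). Its relative Tfap2a was at -0.11 ± 0.068 (adjusted p = 0.343), and the changes of the 2 genes differed by 0.057 (exact permutation p = 0.486). Of the silent genes, Cdx2, which establishes trophectoderm, was at -0.17 ± 0.093 (adjusted p = 0.253). Elf5 and Gata3, factors of trophoblast stem cells, were at -0.13 ± 0.079 and -0.070 ± 0.071, and the placental homeobox gene Esx1 at -0.021 ± 0.092.

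In endoderm, 2 of 10 measured markers were detected and none was called by limma, with 2 at an unadjusted p under 0.05. Dab2, an endocytic adaptor made by primitive endoderm, ranged from 3.90 to 4.48 with cisplatin and from 4.00 to 4.93 in the controls. Its change was -0.067 ± 0.19, and the spread within each group was larger than the change. Foxa1, a pioneer factor of definitive endoderm, ranged from 3.22 to 4.02 and from 3.29 to 4.02, with a change of -0.11 ± 0.19. The primitive endoderm factor genes Gata4 and Gata6 were silent, at changes of -0.067 ± 0.10 and -0.094 ± 0.091.

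Hnf4a, a factor of visceral endoderm and liver, was the silent marker whose groups did not overlap. It read 3.43, 3.39, 3.42 and 3.51 with cisplatin and 2.97, 3.28, 3.09 and 3.38 in the controls, so the highest control and the lowest cisplatin array were nearly equal. The change of 0.26 ± 0.087 gave an adjusted p = 0.0645, and 0.0201 without control replicate 6, where the change was 0.33. Groups did not overlap for 4 of the 37 markers, 3 with cisplatin above and 1 below, beside 24.3% of all genes, of which 14.2% lay above and 10.1% below. Sox17, a factor of primitive and definitive endoderm, was at -0.27 ± 0.11 (adjusted p = 0.139) and its relative Sox7 at 0.10 ± 0.082. Sox17 passed without control replicate 3, at -0.37 (adjusted p = 0.0302). Its means of 2.79 with cisplatin and 3.05 in the controls both lie below the array background. The pioneer factor gene Foxa2 was at -0.12 ± 0.062 (adjusted p = 0.227), and the secreted proteins Afp and transthyretin (Ttr) were at -0.019 ± 0.12 and 0.13 ± 0.072. Over the 25 silent markers of all lineages, the 95% confidence intervals of the change reached from -0.52 to 0.45. Of the 37 markers, 17 lay in both groups below 3.10, which was taken as the array background. It is the mean reading of non-specific probes having 24 G or C among 25 bases. Those with 25 read 4.89, those with 15 read 2.37, those with 10 read 2.19 and those with 5 read 2.10. The limit of 3.10 is thus a high one, and a marker below it can still read above probes with fewer G or C.

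Several markers were read by more than 1 probe set, which allowed the same transcript to be followed through different probes. The 37 markers had 67 probe sets, 19 of the markers had more than 1, and no marker had probe sets called in opposite directions. Adjusted over 28898 probe sets, 7 of the 67 were called, beside 16.3% of all probe sets. Of the 5 Pax6 probe sets, the brightest changed by -0.77 and the next by -0.97 ± 0.23 (adjusted p = 0.0164). That second probe set read 4.32, 3.95, 4.64 and 4.00 with cisplatin and 5.59, 5.24, 5.49 and 4.49 in the controls, with control replicate 6 inside the cisplatin range. The 3 dimmer ones, with means from 2.38 to 3.60, had changes of -0.17 to 0.014 and were not called.

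All 3 Ascl2 probe sets had higher means with cisplatin. The chosen one is of a kind that can match several transcripts, and its reading could include other genes. The next, which is not of that kind, read 4.20, 4.42, 4.45 and 4.83 against 3.93, 4.01, 4.12 and 4.02, with no overlap, and changed by 0.46 ± 0.11 (adjusted p = 0.0208). The third had a change of 0.30 ± 0.13 (adjusted p = 0.170). For Cdx2 the dimmer probe set passed where the chosen one did not. It read 2.54, 2.62, 2.68 and 2.69 with cisplatin and 2.90, 2.93, 2.87 and 3.09 in the controls, with a change of -0.32 ± 0.067 (adjusted p = 0.00933). All of these values lie below 3.10. Of the 4 Hnf4a probe sets, the chosen one and the one at 2.76 ± 0.13 and 2.49 ± 0.07 can match several transcripts, and the latter was called (0.27 ± 0.076, adjusted p = 0.0361). The 2 that are not of that kind were at 0.14 ± 0.077 and -0.12 ± 0.070 and were not called.

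**Figure D3:**
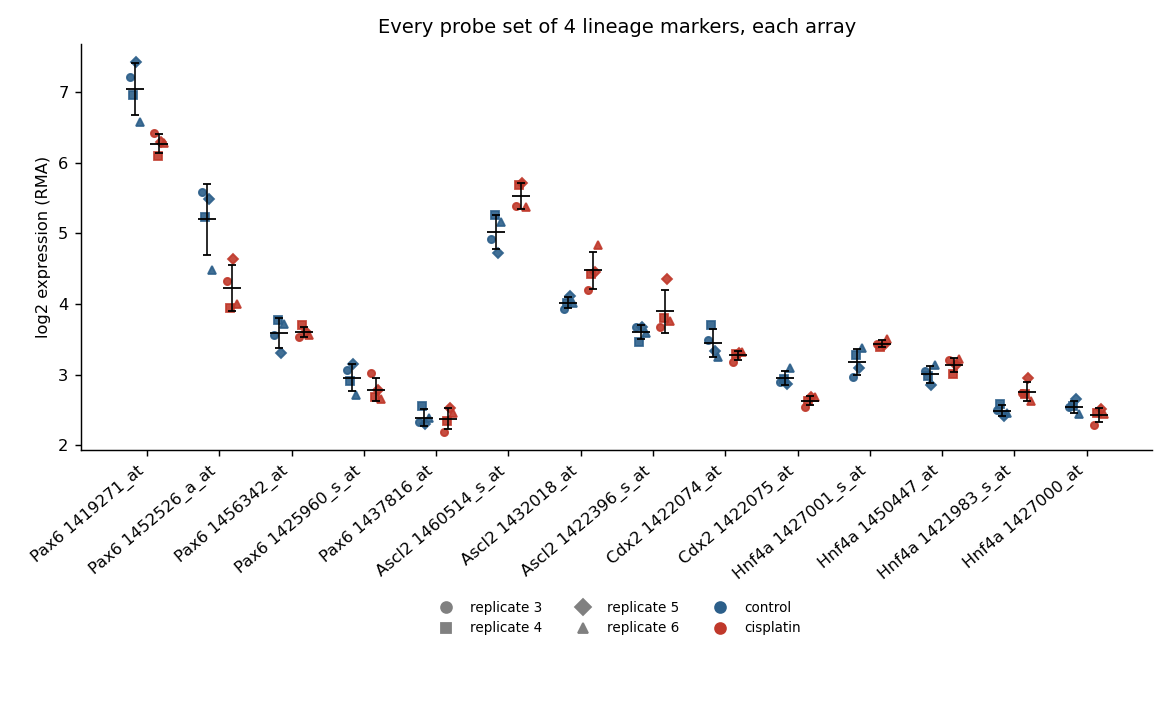
Log2 expression on each array for every probe set of Pax6, Ascl2, Cdx2 and Hnf4a, ordered by level within each gene; bars are means and error bars the SD over 4 arrays. The 2 brightest Pax6 probe sets are lower with cisplatin, by 0.77 and 0.97, and the changes of the 3 dimmer ones were at most 0.17 in size.

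Further markers of the same lineages, outside the 39, were listed by name to set beside them. Of 40 such genes 33 were measured, and 5 were higher and 5 lower with cisplatin. Over all genes 19.3% were called, 11.6% higher and 7.69% lower. The 10 called genes were all among the 19 detected ones, and 29.6% of all genes with a mean of at least 3.5 were called. Dll1, a Notch ligand of presomitic mesoderm and neural progenitors, read 6.05, 6.48, 6.46 and 6.33 with cisplatin and 5.50, 5.72, 5.75 and 5.66 in the controls, and rose by 0.67 ± 0.10 (adjusted p = 0.00118). The 4 treated arrays all lay above the controls. Of the other 8 measured mesoderm genes none was called, and Tcf15, a factor of paraxial mesoderm and primed epiblast, had a mean of 9.40 in each group.

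Of the further ectoderm genes, Neurod1 was higher and Sox11 and Ncam1 were lower. Neurod1, a proneural factor, read 9.33, 9.54, 9.61 and 9.10 with cisplatin and 8.49, 8.59, 8.66 and 8.00 in the controls. It rose by 0.96 ± 0.15 (adjusted p = 0.00188), and its second probe set by 0.87 ± 0.19. Sox11, a factor of neural precursors, read 7.70, 7.52, 7.61 and 7.67 against 8.08, 7.81, 7.92 and 7.99. It changed by -0.33 ± 0.070 (adjusted p = 0.00923), and all 6 of its probe sets had a smaller mean with cisplatin, 4 of them called. Ncam1, the neural cell adhesion molecule, changed by -0.45 ± 0.094 (adjusted p = 0.00792). Of its 6 probe sets, 5 had a smaller mean with cisplatin and only the chosen one was called. The remaining 1 changed by 0.21 ± 0.066 (adjusted p = 0.0551 over all probe sets). By their chosen probe sets, the neural genes Pax6, Sox11 and Ncam1 were lower on the arrays on which Neurod1 was higher.

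In endoderm, Hhex, a homeobox factor of anterior endoderm, rose by 0.66 ± 0.083 (adjusted p = 0.000501). It read 6.84, 7.03, 7.22 and 7.01 with cisplatin and 6.25, 6.39, 6.39 and 6.46 in the controls. Amn, part of the cubilin receptor of visceral endoderm, was higher by 0.42 ± 0.11 (adjusted p = 0.0206), and Lama1, a laminin chain of the basement membrane, was at -0.52 ± 0.10 (adjusted p = 0.00514). Of the trophoblast genes, Krt7, a keratin of trophoblast, was higher by 0.41 ± 0.10. Fgfr2, the FGF receptor of trophoblast stem cells, changed by -0.53 ± 0.12 and Tead4, a factor that acts before Cdx2, by -0.41 ± 0.094 (adjusted p = 0.0111 and 0.0128). All 3 Fgfr2 probe sets had a smaller mean with cisplatin, but only the chosen one was called, and it can match several transcripts. Both Tead4 probe sets had a smaller mean too, and 1 was called. After centring, the calls of Amn and Krt7 were lost (adjusted p = 0.0560 and 0.0600).

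**Figure D4:**
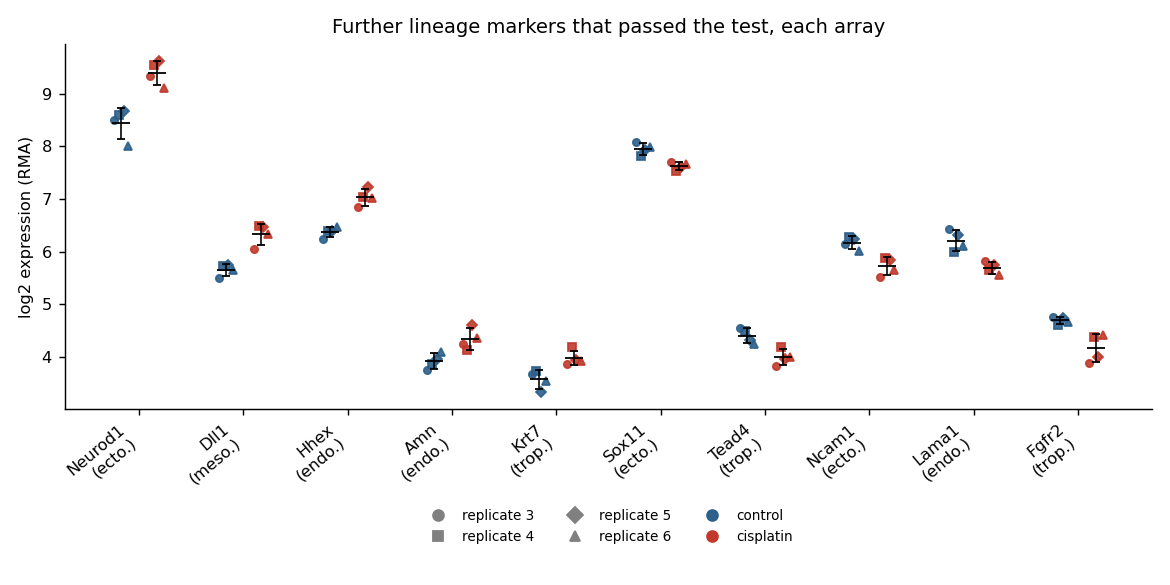
Log2 expression on each array of the 10 further lineage markers that passed the test, ordered by change; bars are means and error bars the SD over 4 arrays. Changes run from 0.96 for Neurod1 to -0.53 for Fgfr2, and the groups are apart for each of the 10 genes.

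The cells were checked against their own markers and against those of feeder cells. All 11 ES cell markers measured were detected, with means from 9.42 to 13.41. Of these, Nanog, Esrrb, Zfp42, Utf1, Klf4, Lin28a and Sall4, 7 in all, were lower with cisplatin. None was higher, and Pou5f1, Sox2, Dppa5a and Fgf4 were not called. Over all genes 7.69% were lower, and 29.6% of genes with a mean of at least 3.5 were called in either direction. The 11 markers averaged 10.76 ± 0.028 (SD, n = 4) with cisplatin against 11.00 ± 0.0097. Of 12 fibroblast markers 7 were silent, among them Col1a1, Col1a2, Dcn and Lum. The 5 detected ones included Vim at a mean of 10.82, Fn1 at 10.05 and Acta2 at 8.50. Thy1 was higher with cisplatin, at 5.23 ± 0.23 against 4.62 ± 0.28, while Fn1 was lower. The average of the 12 ranged from 4.62 to 4.94 with cisplatin and from 4.71 to 4.87 in the controls. The part of the ES cell or fibroblast list in the changes above was not tested. Hprt, the gene named in the label of the line, read 4.84 ± 0.16 and 4.60 ± 0.37. The position of its defect is not given in the sources used here, so this reading does not check that label. Pairs of arrays of 1 group had Pearson correlations of 0.997 to 0.998 across genes.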

How the data were processed

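The values are log2 expression values, 1 column per array, that the authors deposited; the submitters' processing notes name RMA and limma, with versions not given in the sources used here. RMA makes array distributions alike, which hides a shift of all transcripts in 1 direction. Of 45141 probe sets, 28898 are annotated to 1 gene, 551 to several, and 15588 besides 104 controls have none listed. Symbols were updated through Entrez identifiers with RefSeq GRCm38.p6, which held 16937 of 17098 genes. The contrast of cisplatin minus control was fitted with limma 3.58.1 in R 4.3.3 (lmFit and eBayes, group as the only term, no filter), with Benjamini-Hochberg adjustment over 17098 genes and a threshold of 0.05. The 6 pairs of relatives were compared by exact permutation tests. The fit was tested on simulated data. Alternatives varied the probe set, dim genes, normalization, variance model, threshold, a replicate term and each array left out. All 39 members are named, and further lineage markers where called; of the uncalled ones Tcf15, and in the closing section Cubn, Bmp4, Krt8, Krt18 and Ets2, were named after their values were seen. The members and lists were chosen with earlier results of these data known. The number of arrays limits the precision; the median SE of a change was 0.076. Figures were drawn with matplotlib 3.10.9.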

Additional observations from a re-analysis of the deposited data

Results flagged for a closer look

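In 5 of 74 groups of 4 arrays checked (37 markers, both groups), 1 array stood apart from the other 3 by more than Dixon's 95% limit. Chance alone gives about 1 in 20. On the cisplatin arrays, Mesp2 was at 4.81 in replicate 3, with the others from 5.47 to 5.60. Its change was 1.15 without that array. Dab2 was also low on that array, at 3.90 against 4.42 to 4.48. In cisplatin replicate 4, Mesp1 was at 4.12 against 3.73 to 3.79 and Hand1 at 3.54 against 3.26 to 3.29. On the control arrays, Kdr was at 3.14 in replicate 5, with the others from 3.49 to 3.52.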

How the results depend on the processing

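Mesp2 and Pax6 kept direction and call under all 12 alternatives (highest adjusted p = 0.0232 and 0.0460, both with an ordinary t statistic) and without each array in turn. Over all markers and alternatives other than leaving out an array, direction and call were kept in 389 cases, 14 gained a call, 2 lost it and 13 turned direction without a call. All genes called numbered 3303, with 1855 at a threshold of 0.01 and 5012 after centring. Higher calls went from 1989 to 1113 and 1087 there, and lower calls from 1314 to 742 and 3925, or to 2222 probe sets when each was tested on its own. Markers called higher went from 2 to 1 at 0.01 and with an ordinary t statistic. Markers called lower went from 1 to 10 after centring, to 2 with the most variable probe set or the mean of probe sets and to 3 with a replicate block. Further markers called higher went from 5 to 3 at 0.01, after centring, with repeated quantile normalization and with an ordinary t statistic, and lower from 5 to 3 at 0.01 and with an ordinary t statistic. Detected markers went from 12 to 21 at a limit of 3 and to 9 at 4. Leaving out arrays gave 1 to 3 markers higher and 1 to 2 lower.

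The replicate block called 3447 genes and brought Mesp1, Otx2 and Tubb3 past the threshold (adjusted p = 0.0216, 0.00665 and 0.0305). The same-number correlations of deviations over all genes were 0.20, 0.18, 0.20 and 0.065, where control replicate 6 correlated best with cisplatin replicate 3. Over detected genes they were 0.33, 0.27, 0.31 and 0.14, and every sample correlated best with its own number. The numbers may therefore mark pairs, which the labels do not state. Under the block no marker lost its call.

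Directions turned only for markers that were not called. After centring, Sox7, Ttr, Hand1, Tbx6, Pdgfra, Msgn1 and Sox1 were at -0.027, -0.0049, -0.063, -0.066, -0.094, -0.039 and -0.027. With the most variable probe set, Sox7, Pax3, Map2 and Tfap2a were at -0.013, 0.030, 0.036 and 0.049, and the difference of Tfap2c minus Tfap2a at -0.19. With the mean of probe sets, Afp and Eomes were at 0.011 and 0.050. Leaving out arrays gave ranges across 0 for Gata4 (-0.14 to 0.0084), Afp (-0.12 to 0.089), Dab2 (-0.20 to 0.11), Foxa1 (-0.25 to 0.017), Eomes (-0.11 to 0.10), Gsc (-0.099 to 0.060), Pdgfra (-0.044 to 0.16), Wnt3 (-0.079 to 0.080), Pax3 (-0.091 to 0.0072), Map2 (-0.073 to 0.0023) and Esx1 (-0.085 to 0.053). The causes were not tested.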

Other observations

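Among further lineage markers that did not pass the test, Bmp4, a signal that favours mesoderm and trophoblast, was at -0.43 ± 0.14 (SE, 4 arrays against 4, limma adjusted p = 0.0635). Bmp4 was called lower with the replicate block and after centring (limma adjusted p = 0.00736 and 0.0183). Those fits called 20.2% and 29.3% of all genes. Krt8 and Krt18, keratins of simple epithelia and trophoblast, were at 0.23 ± 0.14 and 0.25 ± 0.13 (limma adjusted p = 0.334 and 0.230). With the replicate block both were called higher (limma adjusted p = 0.0474 and 0.0336). After centring neither was called (limma adjusted p = 0.612 and 0.485). Ets2, a factor of trophoblast stem cells, was at 0.14 ± 0.056 (limma adjusted p = 0.130), and its groups did not overlap. Cubn, the cubilin receptor of visceral endoderm and the partner of Amn, was at 0.22 ± 0.22 by its brightest probe set. Its other probe set read 2.96, 3.53, 3.39 and 3.62 with cisplatin and 2.77, 2.68, 2.95 and 2.66 in the controls, a change of 0.61 ± 0.13 (limma adjusted p = 0.00990 over all probe sets).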
